A study of Drosophila melanogaster with 3 samples.

Results

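The vacuolar H+-ATPase (V-ATPase) is the pump that moves protons across membranes. In the fly, several of its subunits are each encoded by a small family of genes, the paralogs. Described here are 10 genes from 4 such families, chosen by name: Vha100-1, Vha100-2, Vha100-4 and Vha100-5 for subunit a, VhaM9.7-a, VhaM9.7-b and VhaM9.7-c for subunit e, VhaAC39-1 for subunit d, and Vha14-1 and Vha14-2 for subunit F. They were the genes named as the single symbol of 13 probes among the 20000 probes of the array, and all 13 probes had a value on every array. They make up 10 of the 13026 features (9756 named genes and 3270 unnamed probes) that could be tested. The choice was made with earlier results of these data known.

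The V-ATPase has a cytosolic part, V1, that hydrolyses ATP, and a membrane part, V0, through which protons pass. Subunit a forms the path of the protons and helps to direct the pump to a particular membrane. Subunit d joins the rotating ring of V0 to the central stalk, and subunit F is part of that stalk. Subunit e is a small hydrophobic protein of V0. In the larval midgut the pump acidifies lysosomes, and in copper cells, the acid-secreting cells of the middle midgut, it acidifies the gut lumen.

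RNA came from the midgut of Drosophila melanogaster EcR mutants (EcRM554fs/EcRV559fs), in which no isoform of the ecdysone receptor functions. The larvae carried the heat shock inducible transgene hs-EcR-B230.1, which supplies the receptor in earlier larval life, and were taken at stage 2a, where they arrest at the end of the last larval instar. Independent mutant samples, called replicates 3, 4 and 6 after their titles, were each hybridised on an array (3 arrays in all). The other channel held the same RNA throughout, a mix from midguts of wild-type Canton S animals at several stages. The mutant was labelled with Cy5 and the reference with Cy3 on every array.

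Values are log2 ratios of mutant over reference after each array was centred on its median, so that 0 is the typical probe. This direction is likely, from the order of the channels in the labels, and is not stated with the values. If it were the other way, every sign below would turn. The reference mixes stages and lacks the transgene, so genotype, stage, strain and heat shock cannot be told apart in a ratio, and with 1 dye orientation a dye effect stays in it. In whole midguts, fewer cells of a type and less RNA per cell cannot be told apart either. A ratio says nothing of how abundant a transcript is or of how one paralog's level compares with another's. The number of arrays limits the precision.

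The arrays held values for 14069 to 18991 probes, with a median SD over the 3 arrays of 0.104 (log2). The EcR probe had log2 ratios of 1.72, 0.57 and 2.19 on replicates 3, 4 and 6 (adjusted p = 0.0044 in limma; 0.0552 without replicate 3), and the files do not say whether it also detects RNA of the transgene. Among markers of other tissues, all 3 fat body genes tested of 6 listed were lower (Fbp1 at -1.01, Lsp2 at -0.92 and Fbp2 at -0.46). Less fat body in the samples and less RNA of these genes per cell cannot be told apart. Of 6 Malpighian tubule genes tested of 8 listed, 1 was higher and 2 were lower (-0.91 to 0.22). Of 4 visceral muscle genes tested of 7, 1 was higher (-0.014 to 0.40). Of 3 neuronal genes tested of 5, 0 passed in limma, and 0 had an unadjusted p under 0.05 (-0.045 to 0.12). Within the midgut, the copper cell and acid region genes tested, 2 of 3 listed, were dve at 0.19 and Ptx1 at -0.059. Neither passed, and lab, the other gene listed, had no probe with its symbol alone. For dve the unadjusted p in limma was 0.0471 (adjusted p = 0.102). Of 5 testis genes tested of 6, 1 was higher (0.050 to 0.27). Ratios do not show whether a marker is present or absent, and the part of these tissues in the results below was not tested.

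Of the 10 paralogs, Vha100-4 and VhaAC39-1 were higher in the mutant midgut, and VhaM9.7-b, Vha14-1 and Vha100-2 were lower. The mean log2 ratios ran from 0.90 for Vha100-4, which is 1.87-fold higher, to -0.74 for VhaM9.7-b. The other 5 did not pass. The 5 called genes are 50% of the paralogs, where 37.0% of all features were called at an adjusted p under 0.05 (13.4% higher and 23.7% lower, limma against 0, two-sided, adjusted over all features). With 10 genes such a share is not a result about them as a group. Their median log2 ratio was -0.043 against 0.0081 over all features, and their median absolute log2 ratio was 0.34 against 0.15. The 12 other tested subunit genes had mean log2 ratios from -0.32 to 0.19. The 10 paralogs were chosen with earlier results of these data known, so none of these contrasts is a result about them. Without moderation of the variances, 0 of the 10 passed in limma, with 4 at an unadjusted p under 0.05. Over all features that test called 4 of 13026 (0.0307%), against 4824 with moderation.

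**Figure D1:**
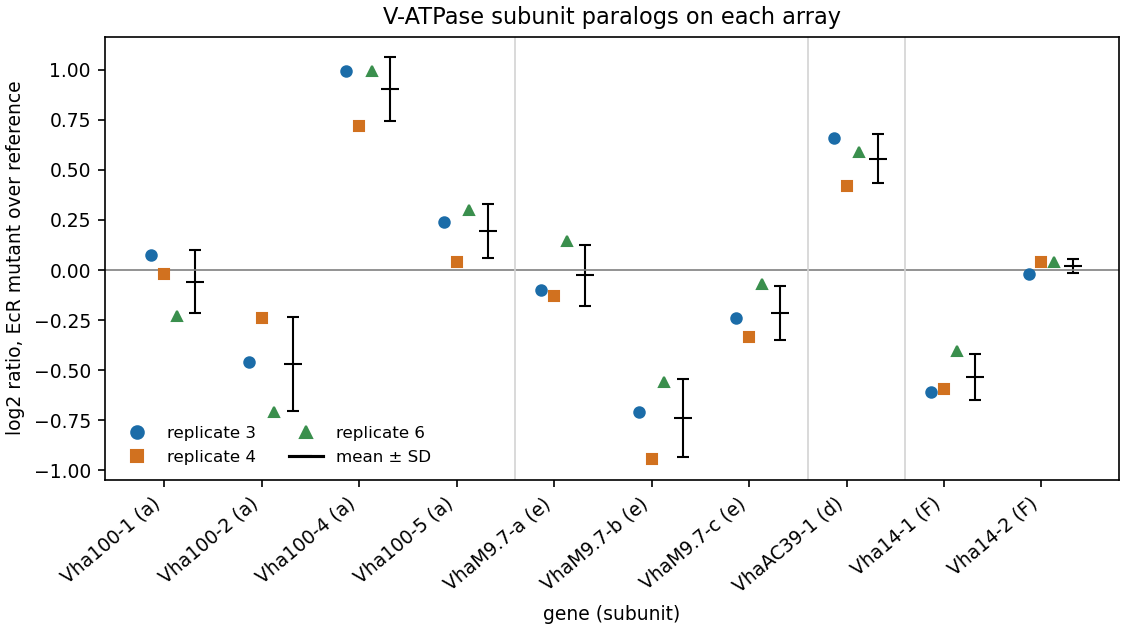
Log2 ratio of EcR mutant midgut over the wild-type reference for the 10 genes, with the subunit in brackets. Points are the 3 arrays by replicate, and the bar to their right is the mean ± SD (n = 3). Vha100-4 and VhaAC39-1 lie above 0 on every array, and Vha100-2, VhaM9.7-b and Vha14-1 lie below 0 on every array.

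Subunit a had paralogs on both sides of 0. Vha100-4 is known from the fly midgut, where it is needed for acid secretion by copper cells. It had log2 ratios of 0.995, 0.716 and 0.995 on replicates 3, 4 and 6. All arrays were thus well above 0, and replicate 4 was the lowest. The mean was 0.90 ± 0.16 (SD, n = 3; limma adjusted p = 0.000134). Its 2 probes each passed on their own, with means of 0.84 ± 0.059 and 0.97 ± 0.28.

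Vha100-2, which encodes another a subunit, had log2 ratios of -0.46, -0.24 and -0.71 on the same arrays. Every array was below 0, and replicate 4 was again the closest to it. The mean was -0.47 ± 0.23 (SD, n = 3; limma adjusted p = 0.00711), and the probes gave -0.40 ± 0.25 and -0.54 ± 0.23, both called lower. Without replicate 3 the call of Vha100-2 was not made (-0.48, adjusted p = 0.0623; from 0.00181 to 0.178 over all alternatives). The EcR ratio was also the smallest on replicate 4, and the part of this in the 2 genes was not tested.

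Vha100-1 encodes the a subunit best known from neurons, where it acts at synaptic vesicles and endosomes. Its log2 ratios were 0.074, -0.020 and -0.23, so the arrays lay on both sides of 0. The mean of -0.059 ± 0.16 did not pass (limma adjusted p = 0.572), with a 95% interval of -0.24 to 0.12. The sign of this mean turned to 0.0014 on the values as deposited and to 0.027 without replicate 6. Its 2 probes had means of -0.059 and -0.060 and differed on replicates 3 and 4.

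Vha100-5, also a gene for subunit a, stood at 0.24, 0.041 and 0.30. All arrays were above 0, with replicate 4 close to it. The mean of 0.19 ± 0.14 missed the threshold (limma adjusted p = 0.0739; 0.0272 to 0.34 over the alternatives), with a 95% interval, not adjusted for the number of features, of 0.024 to 0.36. It passed on the values as deposited (0.25, adjusted p = 0.0286) and without replicate 4 (0.27, adjusted p = 0.0272).

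To compare paralogs, the log2 ratio of one was subtracted from that of another on the same array, which removes the choice of centring. In all, 16 pairs within subunits a, e, d, F, c and D were compared. An exact sign-flip permutation test over 3 arrays cannot give a two-sided p under 0.25, so the p could not reach the threshold for any pair (adjusted over the pairs it was at least 0.308). The sizes on each array and their SD are therefore given. The difference had 1 sign on all arrays for 13 of the 16 pairs. Pairs within a subunit share genes, and the share over other pairs of features was not computed. This count is therefore only a description.

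Vha100-4 exceeded each of the other a subunit genes measured on every array. Over Vha100-2 the difference was 1.45, 0.96 and 1.71 on replicates 3, 4 and 6, with a mean of 1.37 ± 0.38 (SD, n = 3; exact p = 0.25, the smallest possible). The ratio of Vha100-4 was thus 2.59-fold that of Vha100-2. Over Vha100-1 the mean difference was 0.96 ± 0.25, and over Vha100-5 it was 0.71 ± 0.041, with values of 0.75, 0.68 and 0.70. The last of these was the steadiest of the 6 differences within subunit a, and Vha100-4 and Vha100-5 were both lowest on replicate 4. Vha100-2 was below the others on every array, by 0.66 ± 0.36 in the difference Vha100-5 minus Vha100-2 and by 0.41 ± 0.17 in Vha100-1 minus Vha100-2. Vha100-5 minus Vha100-1 was 0.17, 0.061 and 0.53, a mean of 0.25 ± 0.25 that is about the size of its SD.

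**Figure D2:**
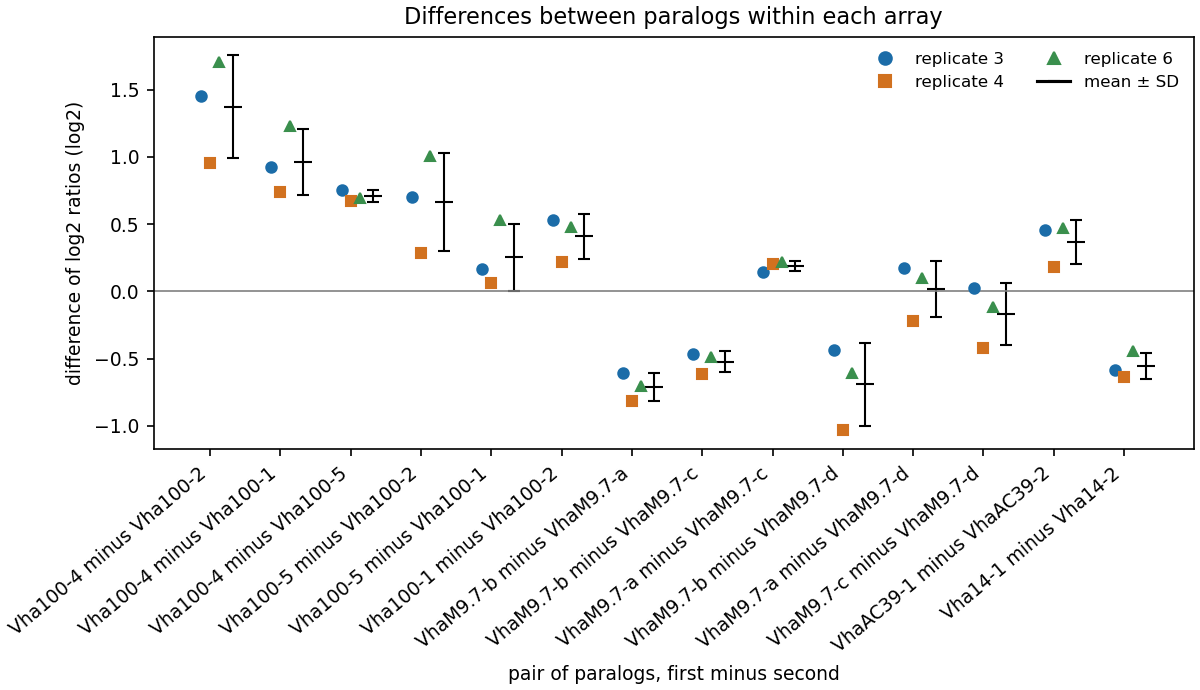
Difference of log2 ratios between paralogs of 1 subunit on each of the 3 arrays, first gene minus second. The bar is the mean ± SD (n = 3). The 3 differences of Vha100-4 from the other a genes are at least 0.675 on every array, and VhaM9.7-b is below each other e gene on every array.

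In RefSeq genes on Release 6 plus ISO1 MT, Vha100-4 and Vha100-2, the genes at the 2 ends of the subunit a family here, are direct neighbours with no protein-coding gene between them. Their other neighbours were looked at for position, after the values of both were known. On the side of Vha100-4, cona, whose span overlaps it, had a mean log2 ratio of 0.033 and CG14309 one of 0.14, and neither passed (limma adjusted p = 0.725 and 0.114). On the side of Vha100-2, Vti1b, whose span overlaps it, was at -0.12 (adjusted p = 0.219). Wdr37, the next gene, had log2 ratios of -1.004, -0.71 and -0.85, all well below 0, and was lower at -0.85 ± 0.15 (SD, n = 3; limma adjusted p = 0.000145). The files do not say which strand the probes detect or whether they cross into overlapping genes.

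**Figure D3:**
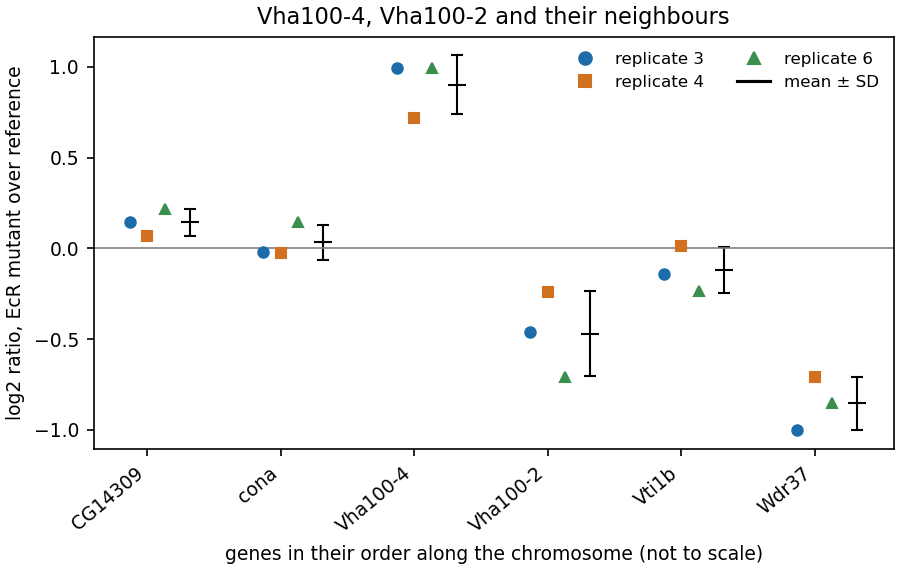
Log2 ratio of EcR mutant midgut over the reference on each array for Vha100-4, Vha100-2 and the protein-coding genes on either side, in chromosomal order and not to scale. The bar is the mean ± SD (n = 3). Vha100-4 at 0.90 stands between cona at 0.033 and Vha100-2 at -0.47.

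The genes for subunit e differed in size, with VhaM9.7-b the lowest. Its log2 ratios were -0.71, -0.94 and -0.56 on replicates 3, 4 and 6, far below 0 on each, and here replicate 4 was farthest from 0. The mean was -0.74 ± 0.19 (SD, n = 3; limma adjusted p = 0.00053), which is 1.67-fold higher in the reference. VhaM9.7-c had -0.24, -0.33 and -0.070, on the lower side on every array but with replicate 6 near 0. Its mean of -0.21 ± 0.13 missed the threshold (limma adjusted p = 0.0526; 0.0112 to 0.231 over the alternatives) and passed under 4 alternatives, among them receptor centring (-0.31, adjusted p = 0.0112) and leaving out replicate 6 (-0.29, adjusted p = 0.0222). VhaM9.7-a had -0.098, -0.13 and 0.15, on both sides of 0, and its mean of -0.027 ± 0.15 did not pass (limma adjusted p = 0.805, 95% interval -0.20 to 0.15). The mean of VhaM9.7-a turned to 0.034 on the values as deposited, 0.0088 without replicate 3 and 0.024 without replicate 4.

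Within arrays, VhaM9.7-b minus VhaM9.7-a was -0.61, -0.82 and -0.71, a mean of -0.71 ± 0.10 (SD, n = 3; exact p = 0.25). VhaM9.7-b minus VhaM9.7-c was -0.52 ± 0.078. Both differences were several times their SD. VhaM9.7-a minus VhaM9.7-c was smaller, 0.14, 0.20 and 0.22, and as steady, with a mean of 0.19 ± 0.040. All 3 genes had their lowest ratio on replicate 4 and their highest on replicate 6. VhaM9.7-d, another e gene, was at -0.046 ± 0.19 and did not pass. It was higher than VhaM9.7-b on every array by amounts between 0.44 and 1.03, and its differences from VhaM9.7-a and VhaM9.7-c changed sign between arrays.

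VhaAC39-1 encodes subunit d and was the second gene called higher. It had log2 ratios of 0.66, 0.42 and 0.59, all clear of 0. The mean was 0.56 ± 0.12 (SD, n = 3; limma adjusted p = 0.000845), 1.47-fold higher in the mutant. Its paralog VhaAC39-2 had 0.20, 0.24 and 0.12, also all above 0, with a mean of 0.19 ± 0.062 that only just passed (limma adjusted p = 0.0485; 0.0145 to 0.309 over the alternatives). The call of VhaAC39-2 was not made when any one replicate was left out or on receptor centring. Nor was it made at an adjusted p under 0.01, with its own variance (limma adjusted p = 0.128) or with single probes (0.051). VhaAC39-1 minus VhaAC39-2 was 0.46, 0.18 and 0.47, a mean of 0.37 ± 0.16 (SD, n = 3; exact p = 0.25), so the difference was smaller on replicate 4.

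The pair for subunit F differed as well. Vha14-1 had log2 ratios of -0.61, -0.59 and -0.40, every one well below 0. The mean was -0.53 ± 0.11 (SD, n = 3; limma adjusted p = 0.000914), which is 1.45-fold higher in the reference. Vha14-2 had -0.020, 0.041 and 0.041, close to 0 on each array. Its mean of 0.021 ± 0.035 did not pass (limma adjusted p = 0.812, 95% interval -0.12 to 0.16), and turned to -0.079 on receptor centring. Whether the spot was above background is not known from these values, for Vha14-2 or for any other gene here. A ratio near 0 therefore does not show that a transcript was present and unchanged. Vha14-1 minus Vha14-2 was -0.59, -0.63 and -0.44, a mean of -0.55 ± 0.099 (SD, n = 3; exact p = 0.25).

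The order of the mean log2 ratios among the 10 genes was Vha100-4, VhaAC39-1, Vha100-5, Vha14-2, VhaM9.7-a, Vha100-1, VhaM9.7-c, Vha100-2, Vha14-1 and VhaM9.7-b. The gap between Vha100-4 and VhaAC39-1 was 0.35 and that between VhaAC39-1 and Vha100-5 was 0.36, each more than 2 times the larger SD of the neighbours. The gaps between Vha100-5 and Vha14-2 (0.17), VhaM9.7-c and Vha100-2 (0.26), and VhaM9.7-b and Vha14-1 (0.20) were only a little over that SD. It is the SD of a single gene, not of the difference within arrays. On replicate 4 VhaM9.7-c (-0.33) was below Vha100-2 (-0.24), the reverse of the order of their means. Vha100-5 and Vha14-2 were both at 0.041 on that array. The neighbours from Vha14-2 down to VhaM9.7-c, and Vha100-2 and Vha14-1, differed by less than it.

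The genes for other subunits give the setting of these paralogs. The list of V-ATPase subunits held 31 genes, of which 22 were tested, and 3 were higher, 6 lower and 13 did not pass, or 40.9% called against the 37.0% of all features. The median log2 ratio was -0.023. The split of higher and lower was 5 and 4 on the values as deposited and 2 and 7 on receptor centring. Without replicate 3 it was 2 and 2, where 2784 of all features were called. With the paralogs counted, 3 of 13 tested V0 genes were higher and 4 lower. Of 9 tested V1 genes 0 were higher and 2 lower in limma. VhaSFD was the 1 V1 gene above 0 with an unadjusted p under 0.05. It passed as higher on the values as deposited (adjusted p = 0.0173), after scaling to equal spread (0.0469) and with quantile normalization (0.041). The proton-carrying ring of V0 was represented by Vha16-1, a c subunit gene, at -0.32 ± 0.18 (limma adjusted p = 0.0194) and VhaPPA1-1, a c'' subunit gene, at -0.24 ± 0.13 (adjusted p = 0.0348). The probes of VhaPPA1-1 disagreed, with -0.47 ± 0.11 (adjusted p = 0.0016) for one and -0.011 ± 0.17 (adjusted p = 0.926) for the other. Vha16-5, another c gene, was at -0.015, and Vha16-1 minus Vha16-5 was -0.30 ± 0.27, or -0.15 without replicate 6.

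In V1, Vha26, which encodes subunit E of the outer stalk, had log2 ratios of -0.22, -0.20 and -0.24. These small values were all alike, and the mean of -0.22 ± 0.019 passed (limma adjusted p = 0.0244). The calls of Vha26, Vha16-1 and VhaPPA1-1 were each lost without replicate 3, with adjusted p = 0.134, 0.0544 and 0.099. Those of Vha26 and Vha16-1 were also lost without replicate 6 (adjusted p = 0.0952 and 0.0831), and that of VhaPPA1-1 without replicate 4 (adjusted p = 0.112). On the values as deposited the calls of Vha26 (adjusted p = 0.0674) and VhaPPA1-1 (adjusted p = 0.0799) were lost as well. Of the catalytic head, Vha55 for subunit B was at -0.13, or -0.019 without replicate 4, and Vha68-3, a subunit A gene, was at 0.029. Neither passed. The 2 probes of Vha68-3 had means of -0.096 and 0.15. Vha68-1 and Vha68-2, the other subunit A genes of the list, had no probe with their symbol alone and were not measured. Vha36-1 and Vha36-2, the paralogs for subunit D, were at 0.089 and 0.11, and their difference of -0.021 ± 0.12 had no steady sign. Vha44 for subunit C was at -0.020 over 3 probes and VhaSFD for subunit H at 0.19 (adjusted p = 0.0537), and neither passed. The probes of Vha44 differed in sign, with means of 0.069, -0.12 and -0.0044, and none passed on its own. Vha13, for subunit G of the outer stalk, had no value on replicate 3 and was not tested, and its log2 ratios were -0.48 on replicate 4 and -0.53 on replicate 6. The accessory genes VhaAC45 and ATP6AP2 were at -0.046 and 0.071 and did not pass. The remaining subunit genes of the list, among them Vha100-3 for subunit a, had no probe with their symbol alone. The same held for Rbcn-3A, Rbcn-3B and Mitf of pump assembly and regulation.

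**Figure D4:**
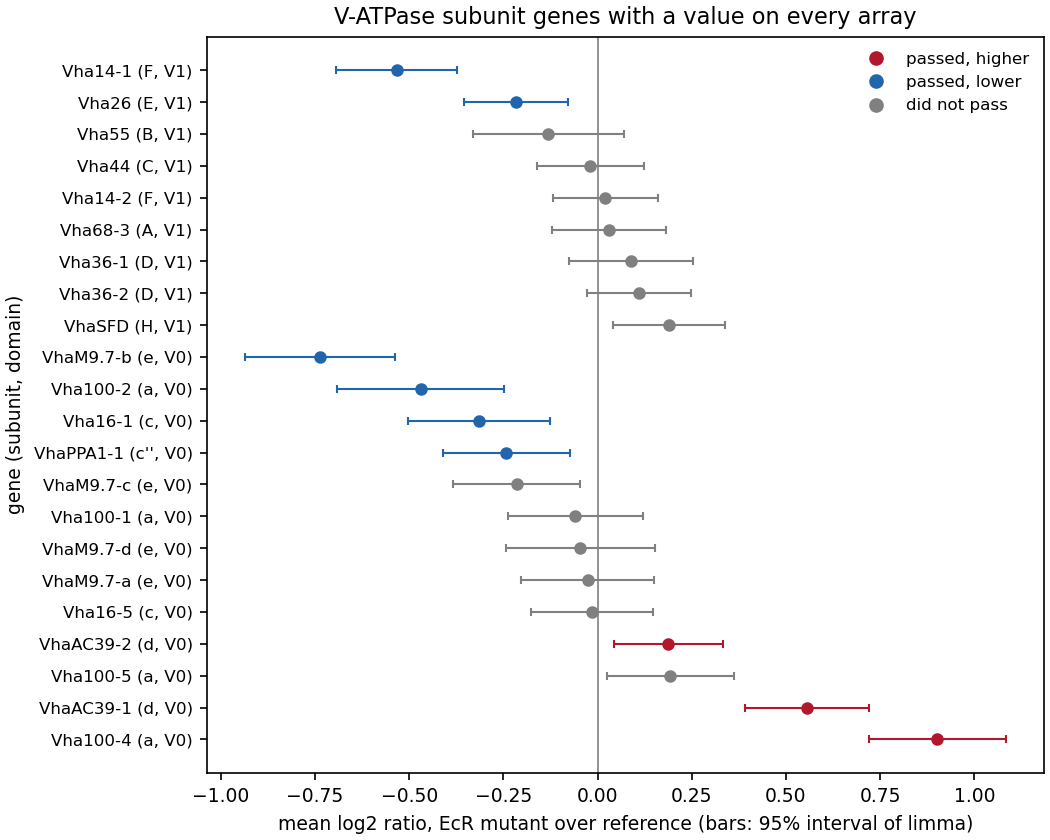
Mean log2 ratio of EcR mutant midgut over the reference for the 22 tested V-ATPase subunit genes, V1 above V0, each ordered from low to high. Bars are 95% intervals of limma (n = 3), not adjusted for the number of features, so 3 intervals of genes that did not pass (VhaSFD, VhaM9.7-c and Vha100-5) leave out 0. Among the V0 genes the range runs from -0.74 for VhaM9.7-b to 0.90 for Vha100-4.

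For the highest and the lowest of the 10 genes, the named genes with the most similar log2 ratios over the 3 arrays were found by Euclidean distance. Nearest to Vha100-4 were CG14820 at a distance of 0.044, Hydr2 at 0.051 and Ugt35C1 at 0.067. Nearest to VhaM9.7-b were Prosalpha2 at 0.034 and Prosbeta7 at 0.076, both subunits of the proteasome core, and ND-B22, a subunit of respiratory complex I, at 0.093. Within a distance of 0.25 there were 46 named genes for Vha100-4 and 28 for VhaM9.7-b. With 3 arrays that share a reference, such likeness is only a description.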

How the data were processed

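The authors deposited 1 log2 ratio per probe and array, with no intensities, backgrounds or spot flags. That the base is 2 was settled from the values: raised to the power of 2, after adding a constant for each array, 100% of those under 1.5 lay on multiples of 0.001 (tolerance 0.02 of a step). Per the labels, the RNA was amplified before labelling. Of scanner software, background correction and filters the sources used here say nothing. Names came from the platform annotation (1 symbol for 10828 probes, several for 227), and the gene IDs of all 13 paralog probes were found in the RefSeq gene table.

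Arrays were median-centred and the probes of a gene averaged. The 13026 features present on all 3 arrays were tested against 0 by limma 3.58.1 in R 4.3.3 (lmFit and eBayes, 6.89 degrees of freedom, Benjamini-Hochberg, threshold 0.05). The spread of the reference, 1 control sample, is left out. Paralogs were compared by exact sign-flip permutation tests (scipy 1.17.1, Python 3.11.15). Receptor centring takes the median of 105 chemosensory receptor probes. The limma fit was also run on simulated ratios with independent noise and far fewer changed features than were called here. Those ratios held no dye, array or reference effect, and the paralog test was not simulated. The naming rule took EcR, the paralogs, other V-ATPase genes and the 3 genes nearest to the highest and lowest paralog. Chromosomal neighbours and the copper cell and acid region genes dve, Ptx1 and lab were named besides, after values were seen. So were the fat body genes Lsp2, Fbp1 and Fbp2. Paralogs, lists and alternatives were chosen with earlier results of these data known.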

Additional observations from a re-analysis of the deposited data

How the results depend on the processing

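The 5 paralogs called were also called, with the same sign, under each alternative with moderated variances except leaving out replicate 3, where Vha100-2 was not (4 of 10 called). The alternatives were values as deposited, centring on probes present on all arrays or on chemosensory receptors, quantile normalization, scaling to equal spread, single probes, features on at least 2 arrays, robust eBayes, an adjusted p under 0.01 and each replicate left out. The number of paralogs called ran from 4 to 6 without 1 replicate. With each feature's own variance, limma called 0 of 10 paralogs, 0 of 22 subunits and 4 of 13026 features, where 4366 features and 4 paralogs had an unadjusted p under 0.05. At an adjusted p under 0.01, 3119 features and 5 subunits were called. Without 1 replicate, the count of features ran from 2784 (without replicate 3) to 4625 and that of subunits from 4 (without replicate 3) to 8. Receptor centring moved the median of all features by -0.0997, and 961 features were higher and 4197 lower, against 1743 and 3081. As deposited, 3038 were higher and 2729 lower. Signs turned for Vha100-1 (0.0014 as deposited, -0.13 to 0.027 without 1 replicate), VhaM9.7-a (0.034 as deposited, -0.11 to 0.024 without 1 replicate) and Vha14-2 (-0.079 on receptor centring). They also turned for the differences VhaM9.7-a minus VhaM9.7-d (-0.058 to 0.14) and Vha36-1 minus Vha36-2 (-0.086 to 0.030) without 1 replicate. Among other subunit genes that did not pass, signs turned for Vha68-3 (-0.021 without replicate 3, -0.070 on receptor centring), Vha44 (0.041 as deposited, 0.0057 without replicate 4), Vha36-1 (-0.011 on receptor centring), Vha16-5 (0.046 as deposited, 0.048 without replicate 4) and VhaM9.7-d (0.015 as deposited, 0.066 without replicate 3). Single probes gave 0.65 and 0.77 for Vha100-4 minus Vha100-5. The cause was not tested. With features on at least 2 arrays, Vha13 was lower (-0.50, n = 2, limma adjusted p = 0.00369). No paired analysis was possible because the mutant is the only group with samples of its own, so replicate numbers pair no groups. Signal over background is unknown.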
